A study of Canis lupus familiaris with 26 samples.

Results

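PIGR, IGHM and C3 are 3 genes of mucosal and humoral immunity, and their levels are described here in laser-captured stroma of the canine mammary gland. They are 3 of the 18466 genes in the count table, found by their symbols in the study's gene tables as ENSCAFG00000011496 (PIGR), ENSCAFG00000030258 (IGHM) and ENSCAFG00000018625 (C3). The study compared adenoma-associated stroma (AAS) with normal stroma in 13 female dogs with a spontaneous simple mammary adenoma, a benign epithelial tumour. Both samples of a dog were cut by laser-capture microdissection from the same formalin-fixed, paraffin-embedded slides, the normal stroma beside unaltered mammary gland, and the dogs received no experimental treatment. They were 6 to 13 years old (median 9), each of another breed, and their tissue blocks had been stored for 4 to 29 months. In the labels AAS is named cancer-associated stroma. Dogs are named by the pair number of the labels. Pair 14 was set apart because its normal stroma library was nearly empty, leaving 12 pairs.

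The product of PIGR is the polymeric immunoglobulin receptor, which glandular epithelial cells use to carry dimeric IgA and pentameric IgM from the tissue side into the secretion, and which is known for supplying antibody to milk. IGHM encodes the heavy chain of IgM, the first antibody class that B cells make and one of the cargoes of this receptor. C3 is the central complement protein, on which all activation routes of the cascade converge, and it is made by liver, macrophages, fibroblasts and epithelial cells. The 3 genes therefore stand for transport, antibody and effector. In RefSeq's table for the dog assembly UU_Cfam_GSD_1.0, PIGR lies between the immunoglobulin receptor genes FCMR and FCAMR and C3 between GPR108 and TNFSF14, and neither overlaps another protein-coding gene. IGHM belongs to a family of closely related immunoglobulin genes, which makes the origin of its reads uncertain.

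The 3 genes were chosen by their difference between AAS and normal stroma in these same samples. That difference is therefore given as a description, without a test. Levels are in normalized CPM, counts relative to library size after scaling by TMM, a method for differences in library composition. In normal stroma the libraries held 759119 to 1602797 estimated counts and in AAS 419770 to 1614120. The AAS library of pair 7 stood apart, with a single gene taking 84.9% of its counts and 1220 genes reaching 10 counts, and 3 counts in it correspond to 24.2 normalized CPM, so that every value from pair 7 is coarse. The tissue was described with 13 fibroblast markers such as COL1A1, DCN and VIM. Each had passed the filter on low counts described below, so their presence is no check of the tissue label. Their summed level ran from 2910 to 22100 normalized CPM in normal stroma and from 853 to 8390 in AAS. Of the 13, 4 fell (COL1A2, DCN, VIM and FBLN1) and 0 rose, where 1.15% of all tested genes fell. Listed genes could be tested only with a symbol, and symbols here favour genes that changed. The count therefore cannot be set squarely against that share. COL1A2 was called in 6 of 12 fits that left out 1 pair and missed without pair 3, 4, 5, 8, 12 or 15, and VIM missed without pair 8.

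PIGR was close to absent from normal stroma. Its level there ran from 0 to 14.3 normalized CPM (median 0), 7 of 12 normal stroma samples held no count, and the 12 libraries together held 51 counts. In AAS it ran from 0 to 293 normalized CPM (median 65.7), with 1020 counts in all. AAS held more than the highest normal stroma sample in 9 of 12 pairs, at 37.4 to 293 normalized CPM. The exceptions were pair 13, with 4.71 normalized CPM in AAS against 10.2 in normal stroma, and pairs 7 and 15, in which both samples held 0 counts. For pair 15 a count of 0 allows up to 5.25 normalized CPM in AAS, and for pair 7 it allows up to 24.2.

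The largest PIGR level belonged to pair 12, with 284 counts or 293 normalized CPM in AAS and 0 counts in normal stroma, at least 115-fold higher against the limit that 3 counts set in that normal library. By the same limit PIGR was at least 35.2-fold higher in pair 10, 26.8-fold in pair 3, 13.3-fold in pair 6 and 10.0-fold in pair 4. Where both samples of the dog had more than 3 counts, the ratio of AAS to normal stroma was 19.4 in pair 8, 9.40 in pair 11 and 4.99 in pair 9. In pair 5 a single count in normal stroma faced 149 in AAS, a ratio of 106 with a 95% interval from 18.7 to 4200, which covers counting error only. AAS averaged 78.6 ± 80.8 normalized CPM against 3.02 ± 4.89 for normal stroma (SD, n = 12). The fitted log2 fold change was 4.52 (standard error 0.74), a value that depends on the handling of the empty normal libraries. PIGR passed the filter on low counts, a mean of 5 counts over both groups, only through AAS.

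IGHM was present in both tissues, and in both it was uneven between dogs. In normal stroma it ran from 0 to 302 normalized CPM (median 23.5), and pair 11 (302), pair 13 (146) and pair 5 (114) together gave 74.7% of the summed level. In AAS it ran from 12.5 to 937 normalized CPM (the median lay between pair 5 with 186 and pair 15 with 215). The highest AAS levels were 937 normalized CPM in pair 4, 787 in pair 11, 717 in pair 6 and 682 in pair 13. IGHM was higher in AAS than in the normal stroma of the same dog in 11 of 12 pairs, but the groups overlapped, and 5 AAS samples exceeded the highest normal stroma sample.

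The size of the IGHM difference separated the dogs. The normal stroma of pair 4 held 0 counts and its AAS 1064, at least 157-fold higher. In that normal library a single gene took 45.3% of the counts and 3341 genes reached 10 counts. The part of RNA or library quality in this difference was not tested. The ratio of AAS to normal stroma was 29.7 in pair 6 and 17.0 in pair 7. In pair 8, also with 0 counts in normal stroma, AAS was at least 32.9-fold higher from 68 counts. Ratios were low in pair 11 (2.61), pair 3 (2.06), pair 12 (1.79) and pair 5 (1.63). Pair 10 went the other way, with 4 counts or 12.5 normalized CPM in AAS and 20.3 in normal stroma. AAS averaged 351 ± 337 normalized CPM against 62.6 ± 87.7 for normal stroma (SD, n = 12), and the fitted log2 fold change was 2.46 (standard error 0.62).

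C3 was counted in each of the 24 libraries. It ran from 6.59 to 76.5 normalized CPM in normal stroma (median 18.6) and from 3.12 to 320 in AAS (median 91.0). The highest AAS levels were 320 normalized CPM in pair 4, 226 in pair 7, from 28 counts, and 181 in pair 9, and 7 AAS samples lay above the highest normal stroma sample. In 9 of 12 pairs C3 was higher in AAS. The ratio of AAS to normal stroma was 23.4 in pair 6, 23.2 in pair 7, 20.1 in pair 4, 16.5 in pair 9 and 7.21 in pair 15, and between 1.51 and 3.44 in pairs 5, 11, 12 and 13.

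In 3 dogs C3 was lower in AAS. Pair 8 had 4.42 normalized CPM in AAS and 25.1 in normal stroma, and pair 10 had 3.12, from 1 count, and 21.4, a ratio of 0.146 with a 95% interval from 0.00352 to 0.919. Pair 3 had 45.4 and 56.4. AAS averaged 112 ± 98.0 normalized CPM against 25.9 ± 22.5 for normal stroma (SD, n = 12), and the fitted log2 fold change was 2.08 (standard error 0.51). A fit that blocks on the dog gave 1.73 (standard error 0.53).

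**Figure D1:**
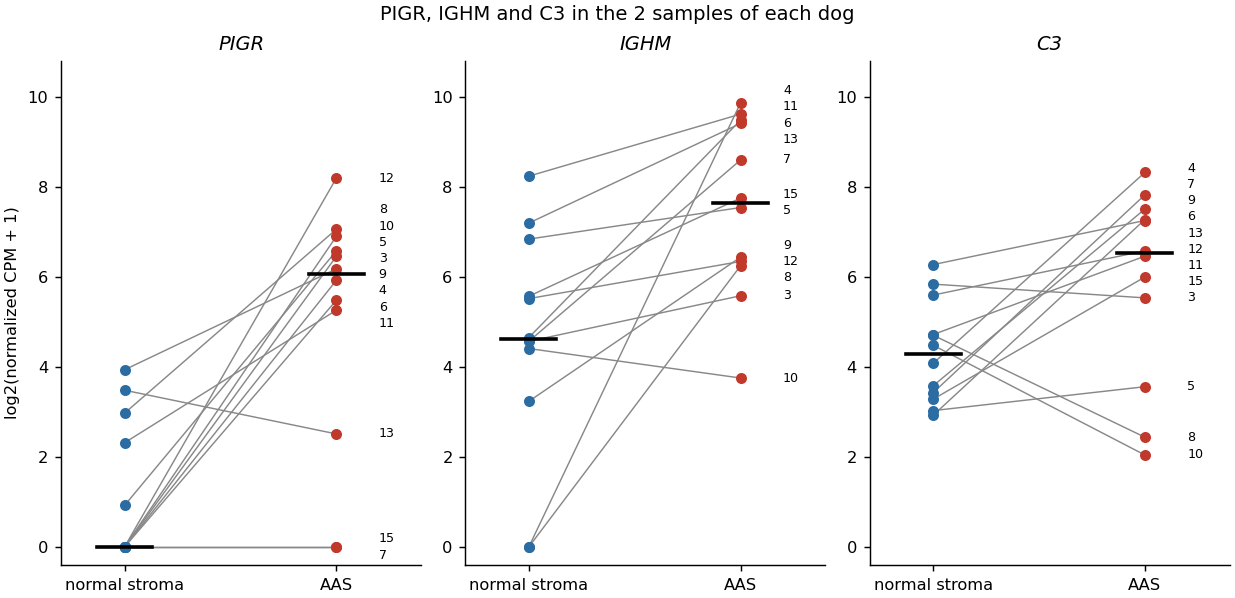
Levels of PIGR, IGHM and C3 in 12 dogs, as log2 of normalized CPM plus 1 on the vertical axis, with normal stroma (blue) and AAS (red) of a dog joined by a line, the pair number beside the AAS point and the group median as a black bar. PIGR lies at 0 in 7 normal stroma samples and stays there in AAS for pairs 7 and 15, IGHM is lower in AAS only in pair 10, and C3 is lower in pairs 3, 8 and 10.

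All 3 genes were higher in AAS in 6 dogs, those of pairs 4, 5, 6, 9, 11 and 12. In 5 dogs 2 of the genes were higher, and in pair 10 PIGR alone was. A fit across 7763 genes with edgeR's quasi-likelihood test served for the other genes described below, where a call means an adjusted p below 0.05 and more than a 2-fold change. It called 1.97% of these genes, 0.824% as higher and 1.15% as lower in AAS. The 3 members are among the called genes because the same contrast chose them, and PIGR is in the fit only because the filter was set to keep it, so that their calls say nothing about them. With the pair as a block 2.36% of the genes were called (0.734% higher, 1.62% lower), and C3 was not among them. DESeq2 called 2.72% (1.33% higher, 1.39% lower), and 4.28% with the block (1.84% higher, 2.43% lower). In the filterByExpr set, from which PIGR is missing, 1.8% were called (0.616% higher, 1.19% lower). With 1 pair left out the log2 fold change ran from 4.00 to 5.04 for PIGR, from 2.13 to 2.90 for IGHM and from 1.77 to 2.31 for C3, and for IGHM and C3 it was lowest without pair 4.

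The 3 genes varied between AAS samples more than most genes of like abundance. Over the 12 AAS samples the SD was 103% of the mean for PIGR, 96.0% for IGHM and 87.7% for C3. Among tested genes within a 2-fold range of the same mean level, the median was 51.4%, 34.9% and 46.2%, and the members exceeded 94.1%, 97.0% and 92.9% of those genes. The 3 highest samples of each gene carried 57.7% of the summed AAS level of PIGR, 58.0% of that of IGHM and 54.2% of that of C3. They were pairs 12, 8 and 10 for PIGR, pairs 4, 11 and 6 for IGHM and pairs 4, 7 and 9 for C3.

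Which dogs carried the high levels was followed by correlating log2 CPM over the 12 AAS samples. The choice of the genes rested on the difference between the groups, into which these AAS values also entered. Together with the relations described below, 21 relations were computed, each with a two-sided permutation test of 100000 resamples and Benjamini-Hochberg adjustment over the 21. None passed after adjustment. IGHM and C3 gave a Pearson r of 0.70 (permutation p = 0.0122, adjusted p = 0.128) and a Spearman rho of 0.69 (permutation p = 0.0151, adjusted p = 0.172). Pairs 4, 6 and 13 were high in both genes and pair 10 was lowest in both. In pair 10 these values came from 4 counts of IGHM and 1 of C3, in the AAS library with the fewest counts (419770). The part of depth in this relation was not tested. Without the 2 samples farthest from the median of IGHM, r was 0.45 (permutation p = 0.204), a removal that by itself narrows the range of IGHM. Leaving out pair 10 gave an r of 0.54 (permutation p = 0.0908). In the 12 normal stroma samples r was 0.15 (permutation p = 0.645).

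PIGR and IGHM gave an r of -0.46 over the AAS samples (permutation p = 0.130, adjusted p = 0.521) and a rho of -0.67 (permutation p = 0.0203, adjusted p = 0.172). Without the 2 samples farthest from the median of PIGR, r was -0.63 (permutation p = 0.0388, adjusted p = 0.709). The values of PIGR themselves chose the samples removed. The value depended on the scale, with an r of -0.22 after scaling by total count (permutation p = 0.485) and -0.12 for the differences of AAS and normal stroma (permutation p = 0.722). Pairs 7, 13 and 15 stood apart from the other samples in PIGR, and among the 9 samples that remain, a split made after seeing the data, r was -0.66 and rho -0.72, given without a test because PIGR itself made the split. Pair 12, the highest in PIGR, had 80.4 normalized CPM of IGHM, and pair 13, with 4.71 of PIGR, had 682 of IGHM. PIGR and C3 gave an r of -0.41 (permutation p = 0.183, adjusted p = 0.550) and a rho of -0.51 (permutation p = 0.0900, adjusted p = 0.378), and an r of -0.43 without the 2 farthest samples. In normal stroma, where PIGR was at 0 in most samples, r was 0.02 for PIGR with IGHM and 0.24 with C3.

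**Figure D2:**
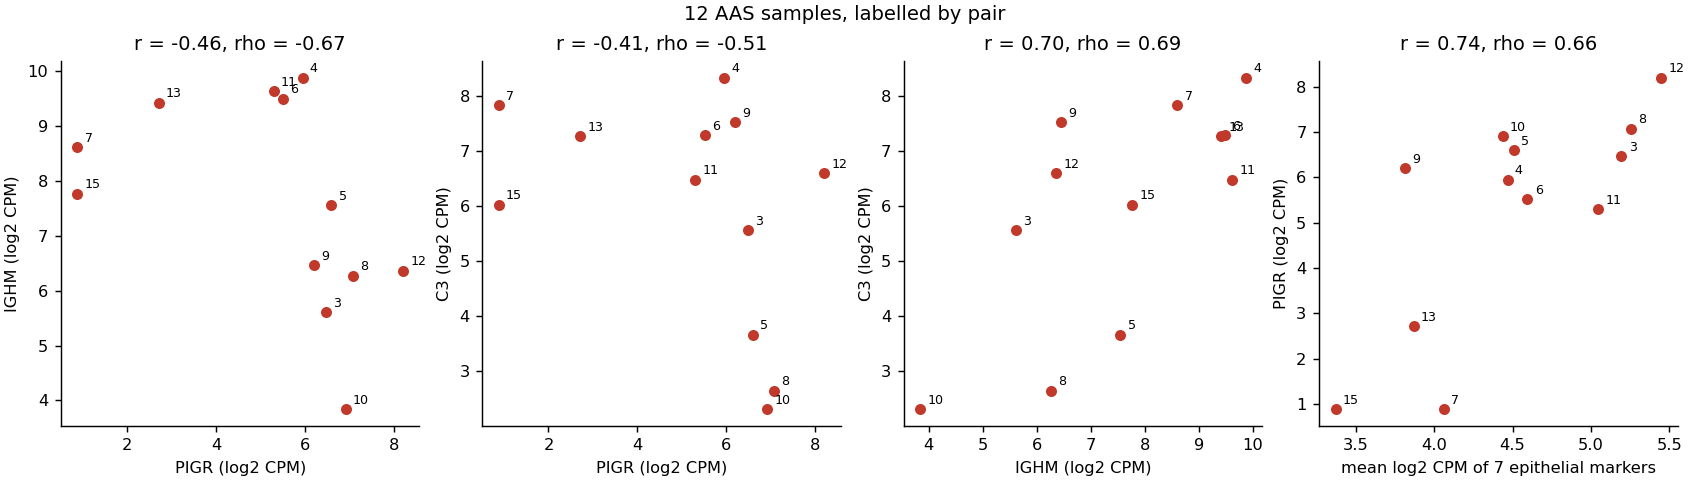
The 12 AAS samples, labelled by pair, with log2 CPM of PIGR, IGHM and C3 plotted against each other and PIGR against the mean log2 CPM of 7 epithelial markers (last panel), with Pearson r and Spearman rho above each panel. IGHM and C3 are both lowest in pair 10, and pairs 7, 13 and 15 lie apart at low PIGR.

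Since PIGR is a gene of glandular epithelium, epithelial markers were followed beside it. Of 29 listed markers, 8 have an identifier here and 7 were tested. Their summed level ran from 156 to 307 normalized CPM in normal stroma (median 239) and from 184 to 473 in AAS (median 316), higher in AAS in 11 of 12 pairs, and none of the 7 was at 0 throughout. EPCAM, an epithelial adhesion molecule, averaged 41.2 ± 14.3 normalized CPM in AAS against 40.7 ± 38.8 in normal stroma (SD, n = 12). CDH1, the E-cadherin gene, averaged 144 ± 57.4 against 101 ± 34.2. KRT15, a keratin of basal epithelial cells, was the single marker that rose, from 4.71 ± 5.54 to 42.2 ± 52.8 normalized CPM (log2 fold change 3.07 with a standard error of 0.83, edgeR adjusted p = 0.0355). KRT15 was not called with the block (adjusted p = 0.139) or without pair 3, 8, 10 or 12, with edgeR and DESeq2 adjusted p between 0.00231 and 0.385 over 21 alternatives. ESR1, the estrogen receptor gene, had the opposite direction, with 5.98 ± 6.44 normalized CPM in AAS against 19.1 ± 8.73 and lower AAS levels in 11 of 12 pairs. It did not pass (log2 fold change -1.57, edgeR adjusted p = 0.242), while DESeq2 with the block called it (adjusted p = 0.00558). The part of epithelial RNA in the PIGR values was not tested.

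Over the AAS samples PIGR and the mean log2 CPM of these 7 markers gave an r of 0.74 (permutation p = 0.00558, adjusted p = 0.117) and a rho of 0.66 (permutation p = 0.0246, adjusted p = 0.172). Pair 12 was highest in both measures and pair 15 lowest in the score. Without the 2 samples farthest from the median of the score r was 0.53 (permutation p = 0.113), and among the 9 samples with high PIGR it was 0.42, both over a narrowed range. With any 1 pair left out r lay between 0.63 and 0.84. Single markers differed. The r of PIGR was 0.74 with GRHL2, 0.69 with KRT19, 0.48 with CDH1, 0.46 with KRT15 and 0.36 with ESR1. It was -0.71 with SPINT1 and -0.235 with EPCAM, which was highest in pair 15, where PIGR was at 0. GRHL2, KRT19, KRT15 and ESR1 had few counts, with 0 in 2, 1, 2 and 3 AAS samples. The part of low counts in these values was not tested. IGHM and C3 gave r of -0.23 and -0.31 with the score (permutation p = 0.471 and 0.333).

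The remaining measures gave no relation that passed. With the log2 total count of the AAS library r was 0.20 for PIGR, 0.46 for IGHM and 0.55 for C3 (permutation p = 0.527, 0.133 and 0.0648), and for C3 it was 0.67 without pair 7 (permutation p = 0.0233). The part of depth in the C3 values was not tested. With the age of the dog r was -0.45 for PIGR, -0.02 for IGHM and 0.01 for C3 (permutation p = 0.149, 0.949 and 0.965). With the age of the block it was -0.16, 0.30 and 0.18 (permutation p = 0.627, 0.343 and 0.583). The level of a gene in the normal stroma of the same dog, a relation added after seeing the data, gave r of 0.04, 0.20 and -0.05 (permutation p = 0.895, 0.522 and 0.884). Over these 12 relations rho lay between -0.38 and 0.52, and no adjusted p was below 0.378. Without the 2 samples farthest from the median of the measure, r for PIGR, IGHM and C3 was 0.10, 0.24 and 0.41 with total count, -0.16, 0.11 and 0.04 with dog age, 0.22, 0.29 and 0.25 with block age, and 0.23, 0.56 and -0.20 with normal stroma.

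**Figure D3:**
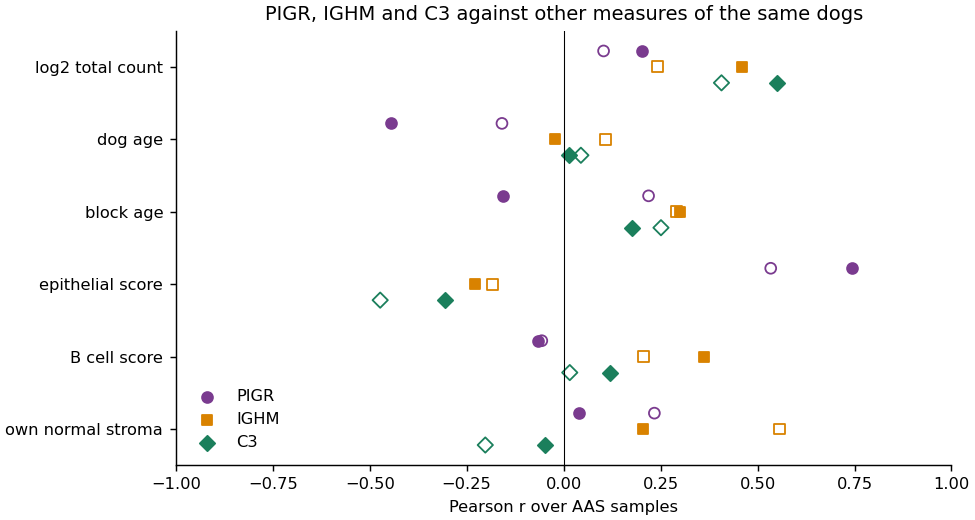
Pearson r of PIGR (circles), IGHM (squares) and C3 (diamonds) over the AAS samples with 6 other measures, for 12 samples (filled) and without the 2 samples farthest from the median of that measure (open). The r of 0.74 between PIGR and the epithelial score is the highest and moves to 0.53 in the open symbol.

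None of the tested partners of PIGR in antibody handling passed the test. Of 21 listed genes, 4 were tested and 0 passed (edgeR's quasi-likelihood test, 0 at an unadjusted p below 0.05, and 0 by DESeq2 with the block). FCGRT, the neonatal Fc receptor that carries and protects IgG, averaged 130 ± 149 normalized CPM in AAS against 151 ± 184 in normal stroma (SD, n = 12). MUC4, a membrane mucin of epithelia, averaged 78.1 ± 55.1 against 51.5 ± 32.1 (log2 fold change 0.63, edgeR adjusted p = 0.654). LYZ, lysozyme, and RAB11A, a GTPase of recycling endosomes, had log2 fold changes of 0.05 (standard error 0.71) and 0.16 (standard error 0.67). The J chain that joins IgM and IgA units for the receptor is not analysed here.

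Beside IGHM, 7 of 21 listed B cell and plasma cell genes were tested, and 0 passed (0 at an unadjusted p below 0.05, and 0 by DESeq2 with the block). Their median log2 fold change was 0.51, against 0.01 over all tested genes. CD37, a tetraspanin of B cells, averaged 13.3 ± 12.1 normalized CPM in AAS against 6.57 ± 14.4 in normal stroma (log2 fold change 1.03, standard error 0.81). TNFRSF17, the survival receptor of plasma cells, averaged 171 ± 130 against 120 ± 106 (0.51, standard error 0.47), and IRF4, a transcription factor of plasma cells, 157 ± 85.8 against 125 ± 35.8 (0.34, standard error 0.23). PAX5, a transcription factor of B cells, had the opposite direction, with 78.2 ± 51.8 against 88.3 ± 84.8 (-0.19, standard error 0.36). The summed level of the 7 genes was 183 to 652 normalized CPM in normal stroma and 251 to 819 in AAS, with AAS above normal stroma in 8 of 12 pairs. In these bulk samples a larger number of B lineage cells and more IGHM RNA per cell cannot be told apart. Over the AAS samples IGHM gave an r of 0.36 and a rho of 0.20 with the mean of the 7 (permutation p = 0.244 and 0.540), and an r of 0.21 without the 2 farthest samples. The value moved widely, to 0.66 for the differences of AAS and normal stroma (permutation p = 0.0174, adjusted p = 0.157) and to 0.0085 without pair 10, and it reached 0.54 without pair 13. For PIGR and C3 r was -0.07 and 0.12. Of the 7 genes CD37 had the highest r with IGHM (0.64), from few counts, with 0 in 2 AAS samples. PRDM1 and SDC1, also on the list, gave 0.36 and 0.15. IRF4, TNFRSF17 and PAX5 went the other way, with r of -0.214, -0.202 and -0.185.

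Of 32 other components and receptors, 3 were tested and 0 passed (1 at an unadjusted p below 0.05, and 0 by DESeq2 with the block). C9, which forms the membrane pore at the end of the cascade, averaged 116 ± 74.6 normalized CPM in AAS against 185 ± 72.6 in normal stroma (SD, n = 12), with AAS lower in 11 of 12 pairs but an edgeR adjusted p of 0.315. DESeq2 with the block gave C9 an adjusted p of 0.0263 but not more than a 2-fold change. CFD, the protease that starts the alternative pathway, had a log2 fold change of -1.12 (standard error 0.83), and ITGAM, a chain of the receptor for cleaved C3, of 0.21 (standard error 0.21).

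Of the 14 complement regulators, 5 were tested, 1 rose and 1 fell, where 0.824% of all tested genes rose and 1.15% fell. Symbols, which favour genes that changed, decided which regulators could be tested, so these counts cannot be set squarely against those shares. CLU, clusterin, a secreted chaperone that holds back the membrane pore, rose from 26.8 ± 22.2 to 255 ± 382 normalized CPM (log2 fold change 3.23 with a standard error of 0.59, edgeR adjusted p = 0.000619), in 11 of 12 pairs. In AAS it ran from 0 in pair 15 to 1320 in pair 11, and the call held with each pair left out. CD55, which breaks up the enzyme that cleaves C3 on the cell's own surface, fell from 52.6 ± 39.3 to 12.9 ± 13.2 normalized CPM and did so in 11 of 12 pairs. Its log2 fold change was -1.96 with a standard error of 0.55 (edgeR adjusted p = 0.0482). CD55 passed with the block (adjusted p = 0.0185) but in 4 of 12 fits that left out 1 pair, with adjusted p from 0.0338 to 0.169, and it missed without pair 3, 5, 7, 8, 9, 10, 11 or 13.

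CFI, the protease that inactivates the cleaved form of C3, averaged 25.8 ± 18.5 normalized CPM in AAS against 6.84 ± 7.55 in normal stroma, higher in 9 of 12 pairs, with a log2 fold change of 1.84 (edgeR adjusted p = 0.261). SERPING1, the inhibitor of the first complement component, averaged 31.1 ± 30.4 against 67.1 ± 34.4, with AAS lower in 10 of 12 pairs and a log2 fold change of -1.05 (edgeR adjusted p = 0.363). Both passed by DESeq2 with the block (adjusted p = 0.0240 and 0.00601). CFHR5, a relative of factor H, had a log2 fold change of -0.93 (standard error 0.69).

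Antigen presentation genes of MHC class II, which macrophages, dendritic cells, B cells and some epithelia use, were the listed group with the most rises. Of 6 tested, 4 rose, where 0.824% of all tested genes did. A listed gene could be tested only if it had a symbol, and symbols here favour genes that changed. This count therefore cannot be set squarely against that share. CD74, the invariant chain, went from 35.4 ± 30.6 to 157 ± 59.3 normalized CPM and was higher in AAS in 12 of 12 pairs (log2 fold change 2.15 with a standard error of 0.37, edgeR adjusted p = 0.000256). HLA-DRB1, DLA-DRA and DLA-DQA1 also rose, by log2 fold changes of 2.34, 2.11 and 1.63, and reads of these genes may be shared with near-identical relatives. DLA-DQA1 was called in 3 of 12 fits that left out 1 pair, with adjusted p from 0.0233 to 0.123. Of 7 tested macrophage and dendritic cell markers 0 rose, and CD209, a lectin of macrophages and dendritic cells, fell from 313 ± 220 to 22.3 ± 31.1 normalized CPM (edgeR adjusted p = 2.86e-05).

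**Figure D4:**
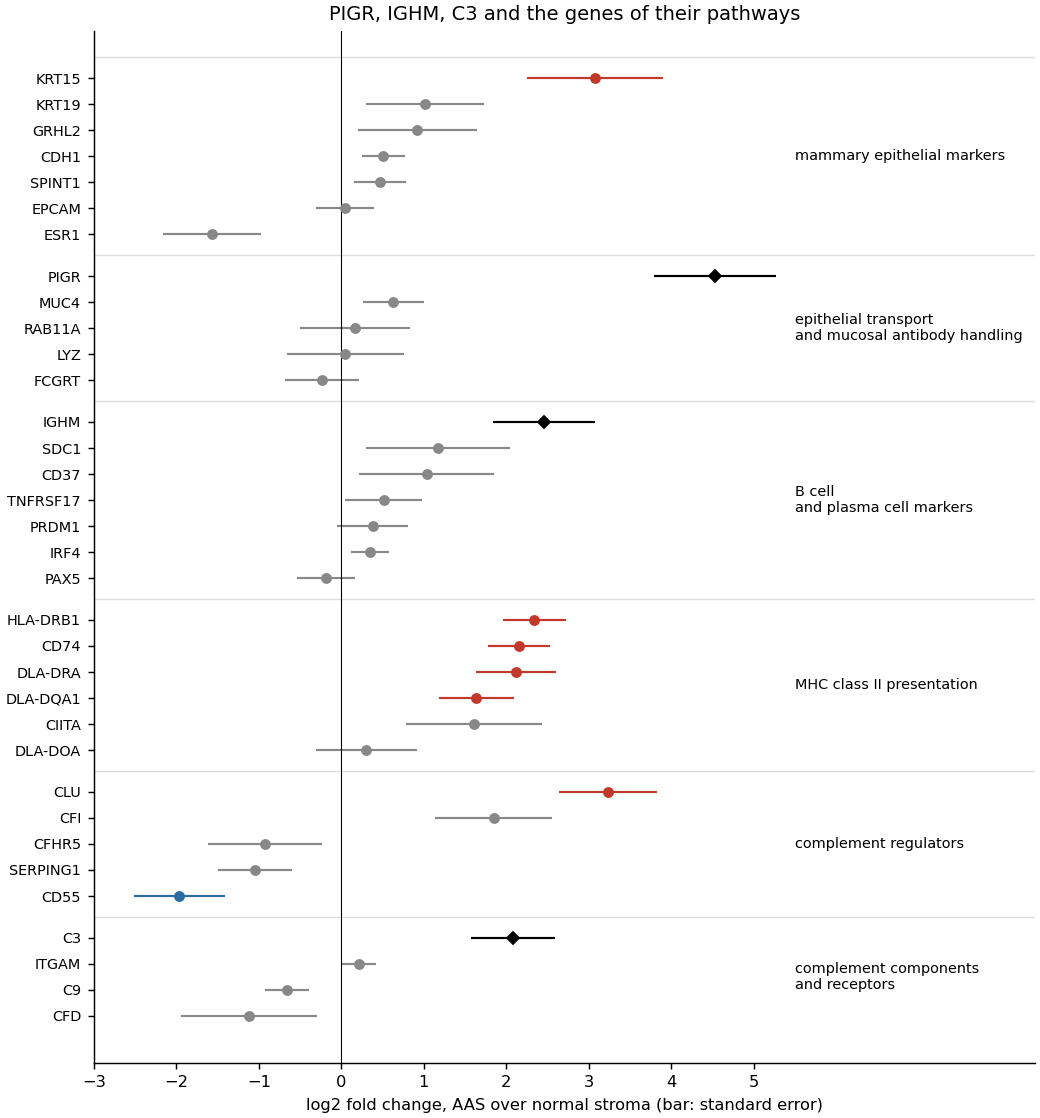
Log2 fold change of AAS over normal stroma with its standard error for PIGR, IGHM and C3 (black diamonds) and tested genes of 6 lists (6 of the 7 B cell and plasma cell genes are drawn), red where a gene rose, blue where it fell and grey where it did not pass. CLU, KRT15 and 4 MHC class II genes are red and CD55 is blue, while the B cell and plasma cell genes drawn beside IGHM are grey.

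The genes whose AAS pattern was most like that of each member were named as a description, over 12 samples and among the tested genes with a symbol. For PIGR they were ENAH, FOXP4, SLC39A7, ENTPD8 and HIVEP3, with r from 0.91 to 0.96. Each of the 5 held 0 counts in pairs 7 and 15, as PIGR did, so that shared empty libraries enter these values. For IGHM they were NOSIP (0.91), VARS2 (0.85), HNRNPK (0.80), CD248 (0.80) and ANXA5 (0.79), and C3 stood at rank 88 of 7762 genes. None of the 5 is a listed B cell marker, but only 7 of the 21 listed B cell and plasma cell genes have a symbol here and could be named. For C3 they were COMMD3 (0.87), LAMB4 (0.86), LMNA (0.84), TNXB (0.79) and EPS15 (0.79). Among the listed genes, the gene most like C3 was the fibroblast proteoglycan gene DCN, with an r of 0.77 at rank 21. IGHM followed at rank 74 and the fibroblast receptor gene PDGFRA (0.69) at rank 83. The fibroblast markers differed in this. COL1A1, COL6A2 and THY1 gave r of 0.298, 0.265 and 0.0751 with C3, and ACTA2 alone went the other way, with -0.374 at rank 7071.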

How the data were processed

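RNA of 26 laser-captured samples was sequenced from total RNA (4 ng per library in the labels, while the study's methods name a larger amount). The authors quantified transcripts with kallisto 0.44.0 on Ensembl transcripts of CanFam3.1, with bias correction, and used tximport for sums over each gene. The deposited table holds estimated counts per gene, not normalized. These estimated counts are whole numbers, and rounding changed 0 values. No libraries were identical. Groups and pair numbers came from the sample titles. A pair number marks 1 dog. Deviations from the group means correlated at 0.0807 within pairs and -0.00508 between pairs, and in 3 of 12 pairs the correlation was above 0.1.

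A mean of 5 or more counts over 24 samples was required (7763 of 18466 genes). TMM scaling and edgeR 4.0.16 (glmQLFit and glmQLFTest, R 4.3.3) followed, without a term for the pair, as the methods name none. This filter replaced filterByExpr because the latter drops PIGR. A gene was called at a Benjamini-Hochberg adjusted p below 0.05 and a log2 fold change beyond 1. Alternatives were the pair as a block, DESeq2 1.42.0, RLE scaling, other filters, all 13 pairs, the 10 most counted genes left out, other prior counts and each pair left out. Correlations used log2 CPM with a prior count of 2. Permutation tests used numpy 2.4.6 (Python 3.11.15). On simulated counts of this comparison the fit was tested. With 200 of 7274 genes changed it made 8 false calls and recovered 80, 50 of them changed 8-fold, and it made 0 calls when no gene was changed. The biological coefficient of variation was 87.9%.

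Symbols were read from the study's gene tables, which name 3294 of 18466 identifiers and favour genes that changed. Named genes are the members, listed genes that passed or that mark their list, and the 5 genes most like each member. Single r values of listed genes were picked after their values were seen. The members and lists were chosen with earlier results of these data known. No sequences are shown. The values of 1 listed gene are not reported here.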

Additional observations from a re-analysis of the deposited data

Results flagged for a closer look

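The excluded pair 14 held signal of IGHM and C3 above the limit of its normal stroma. Its AAS library held 160 counts of IGHM, or 158 normalized CPM over all 26 samples, and 417 counts of C3, or 413 normalized CPM. Its normal stroma library held 0 counts of both, which allows up to 19.8 normalized CPM from a total of 83727 counts. This C3 level is above those of the other 12 AAS samples, the highest of which was 320 normalized CPM. PIGR had 17 counts, or 16.8 normalized CPM, below the limit of the normal stroma library. Why this pair is high in C3 was not tested.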

How the results depend on the processing

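PIGR, IGHM and C3 kept a higher level in AAS under every alternative that gave a value, and PIGR gave none under filterByExpr. The number of genes called was 153 (64 higher, 89 lower), with the pair as a replicate block 183 (57 and 126), with DESeq2 211 (103 higher), with DESeq2 and the block 332 (143 and 189), with filterByExpr 82 (28 and 54) and with no filter on low counts 1690 (1258 and 432). Leaving out 1 pair gave 123 to 158 (48 to 67 higher, 70 to 91 lower). Of the complement regulators 2 were called, but 1 with filterByExpr, 1 without pair 7 and 4 with DESeq2 and the block. Of the epithelial markers 1 was called, and 0 with the block or with filterByExpr. DESeq2 with the block called 1 as well, but ESR1, which was lower, in place of KRT15.

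The r of PIGR with the epithelial score passed adjustment with a prior count of 0.5 (0.818) and with total count scaling (0.826), and without pair 9 (0.841, adjusted p = 0.0246), and ran from 0.626 to 0.841 with 1 pair left out. Total count scaling makes no allowance for library composition, and a single gene took 84.9% of the AAS library of pair 7. The prior count sets the value of PIGR in pairs 7 and 15, where it had 0 counts. The part of these samples in the higher r was not tested. Other relations turned their sign. A prior count of 8 gave -0.0202 for C3 with the B cell score, and RLE scaling 0.00666 for IGHM with dog age. Total count scaling gave 0.396 for PIGR with the B cell score, 0.0385 for IGHM with the epithelial score, and -0.191 and -0.0976 for C3 with dog age and block age. With pair 14 added, the B cell score gave 0.0235 for PIGR and -0.0731 for C3. Without pair 7, PIGR with block age gave 0.266 and C3 with dog age -0.21. Without the 2 farthest samples, PIGR with block age gave 0.219 and IGHM with dog age 0.108. Differences of AAS and normal stroma gave 0.0737 and 0.277 for PIGR with block age and the B cell score, 0.0819 for IGHM with the epithelial score and -0.0127 for C3 with dog age. In normal stroma PIGR gave 0.0217 with IGHM and 0.24 with C3.

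With 1 pair left out, PIGR ran from -0.0403 to 0.369 with total count, -0.498 to 0.266 with block age, -0.212 to 0.116 with the B cell score and -0.107 to 0.236 with its own normal stroma. IGHM with dog age ran from -0.203 to 0.226. C3 ran from -0.21 to 0.26 with dog age, -0.31 to 0.44 with the B cell score and -0.199 to 0.0352 with its own normal stroma. The causes were not tested. Without pairs 7, 8, 10 and 15, the shallowest AAS libraries and an alternative chosen after seeing the data, 125 genes were called and IGHM with C3 gave 0.421. Where PIGR was at 0 in AAS, a count of 0 allows up to 24.2 normalized CPM in pair 7 and 5.25 in pair 15.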
